A study of Mus musculus with 13 samples.

Results

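The genes described here encode the machinery of mitosis: the mitotic spindle, the kinetochores, the spindle checkpoint, the mitotic kinases, the condensin complexes and the regulators of mitotic entry and exit. A list of 55 genes was read on probe sets that carry exactly 1 gene symbol, and for each gene the probe set with the highest mean over all 13 arrays was used. Of the 55 genes, 54 were measured, out of 19938 genes with such a probe set on the array. Of these, 53 were found under the listed symbol and Sgol1 under its current symbol Sgo1. Ccnb1 had no probe set with a single symbol and was not analysed here.

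Affymetrix Mouse Gene 1.0 ST arrays were hybridised with RNA from the small intestine of Apc mutant mice crossed with mice that carry FP transgenes. All animals of all groups had this background. Adenomas gave 3 arrays, normal epithelium with high FP expression (FP-high) gave 4 and normal epithelium with low FP expression (FP-low) gave 6. The normal epithelium lay next to adenomas, so neither normal group came from an animal without adenomas. What FP stands for, the Apc allele, the promoter of the transgenes and the age of the animals are not given in the sources. Crypts were picked with glass capillaries and their RNA was amplified before hybridisation. Which arrays come from the same animal is not labelled, so p-values measure only the spread between these samples, which may be technical. Precision is limited by the small number of arrays.

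Epithelial crypts hold stem cells and rapidly dividing progenitors, and cells leave the cell cycle as they move up towards the villus. The mitotic genes are transcribed mostly in the last part of the cell cycle, so their level in bulk RNA depends in part on how many cells are preparing to divide. In mitosis, condensin compacts the chromosomes, kinetochores assembled on centromeres attach them to spindle microtubules, and the checkpoint holds back anaphase until attachment is complete. Many of these genes share a promoter element, the cell cycle genes homology region, through which the DREAM and MuvB complexes and the factor FOXM1 act.

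Over all probe sets, FP-high replicate 1 was unlike the other 12 arrays. The SD of its log2 levels was 1.21, against 1.89 to 2.10 elsewhere, and it had 362 probe sets above a log2 level of 9, against 1091 to 1320. It correlated with the others at a median of 0.762, while pairs among those 12 arrays ran from 0.921 to 0.985. In this array the 27 brighter mitotic genes lay a median of -2.22 from their FP-low mean and the 27 dimmer ones a median of -1.08, so results are given with and without it. Xist, an RNA of female cells, was high in all 3 adenomas, in FP-high replicate 4 and in FP-low replicate 6 (log2 levels 8.64 to 9.71) and low in the other 8 arrays (2.34 to 3.61). The Y-linked gene Eif2s3y ran the other way, at 2.01 to 2.25 in the arrays high in Xist and 4.43 to 6.87 in the other 8. By both genes the arrays high in Xist read as female and the other 8 as male. The summed level of 12 enterocyte markers was high in every group. Its log2 was 13.22 to 13.57 in adenomas, 12.7 to 14.98 in FP-high and 12.15 to 14.18 in FP-low epithelium. The brightest markers weigh most in this sum, and not every marker was bright. In adenomas, FP-high and FP-low epithelium the mean log2 level was 12.40, 12.57 and 12.27 for Fabp2. For Lct it was 4.44, 6.54 and 5.22.

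By group mean, FP-high normal epithelium had lower levels of mitotic transcripts than FP-low epithelium over nearly the whole list, while no single gene passed the test. The group mean was lower in 53 of 54 genes, where 43.7% of all 23410 probe sets tested were lower by the same count. The median log2 difference, FP-high minus FP-low, was -1.01 over the 54 genes and 0.05 over all probe sets tested. Among probe sets brighter than the median it was -1.02 over the 51 genes found there and -0.23 over all such probe sets. The largest differences belonged to the kinetochore scaffold Knl1 (-2.36 ± 0.35, SE), the cytokinesis factor Prc1 (-1.81 ± 0.36) and the condensin subunit Ncapg2 (-1.55 ± 0.23). Limma called 0 of the 54 genes at an adjusted p under 0.05, and 0% of all probe sets in either direction, with the smallest adjusted p among the genes at 0.0809 for Knl1 and Ncapg2. At an unadjusted p under 0.05, 39 genes (72.2%) were lower and 0 were higher, beside 7.95% and 4.78% of all probe sets. In 15 genes (27.8%) every FP-high array lay below every FP-low array, beside 1.51% of all probe sets. These 15 were Knl1, Nuf2, Cenpn, Plk1, Aurka, Hmmr, Tpx2, Kif15, Aspm, Prc1, Kif20b, Kif23, Ncapg2, Smc4 and Top2a.

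Without FP-high replicate 1 the difference was smaller and kept its direction, and limma again called 0 genes. It was -0.64 at the median of the 54 genes and 0.02 over all probe sets, 53 genes still had a lower mean (45.4% of all probe sets), and 30 (55.6%) had an unadjusted p under 0.05 on the lower side, beside 4.84% of all probe sets. The 15 genes whose groups did not overlap were the same 15 with and without this array, beside 1.81% of all probe sets without it. Calls depended on the other FP-high arrays as well. When replicate 3 was left out limma called 13 of the genes, all lower (0.555% of all probe sets on the lower side). It called 2 genes lower when replicate 2 was left out (0.047%) and 1 when replicate 4 was (0.0256%). In these bulk samples, fewer dividing cells and less of each RNA per cell cannot be told apart.

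The 4 FP-high arrays differed among themselves more than the FP-low arrays did. Measured from the FP-low mean of each gene, the median of the 54 genes was -1.68, -0.53, -0.38 and -1.07 in FP-high replicates 1 to 4, against -0.27 to 0.15 in the 6 FP-low arrays. All 4 FP-high medians lay below all FP-low ones, by a wide margin in replicates 1 and 4 and a narrow one in replicates 2 and 3. Of the 54 genes, 46, 30, 22 and 45 were below the lowest FP-low array in FP-high replicates 1 to 4. In the arrays low in Xist, FP-high replicates 1, 2 and 3 lay below the FP-low range of -0.27 to 0.10, and in the arrays high in Xist FP-high replicate 4 lay at -1.07 and FP-low replicate 6 at 0.15.

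**Figure D1:**
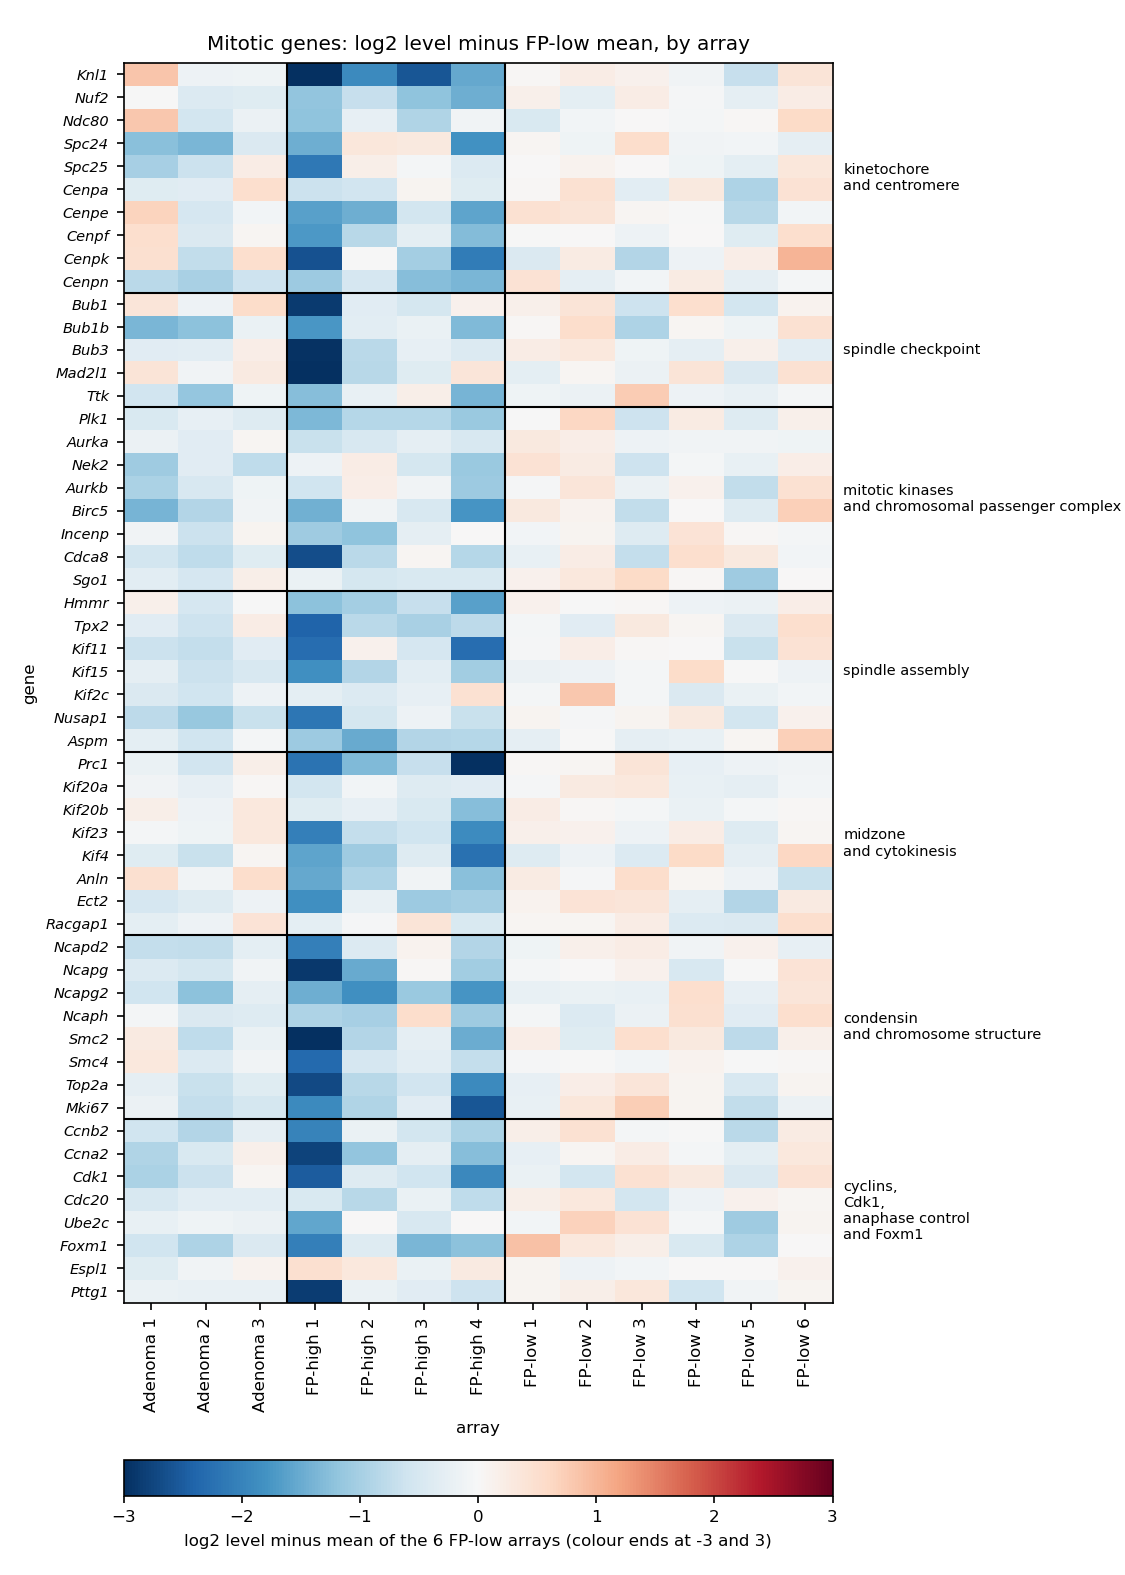
Log2 level of each of the 54 mitotic genes in each of the 13 arrays, minus the mean of the 6 FP-low arrays for that gene; rows are genes in role groups, columns are arrays of the adenoma, FP-high and FP-low groups, and blue is lower and red higher than the FP-low mean, with the colour scale ending at -3 and 3. FP-high replicates 1 and 4 are blue over most genes, with 46 and 45 genes below the lowest FP-low array. The adenoma columns are paler, and adenoma replicate 3, with a median of -0.12, lies within the FP-low range of medians.

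Markers of absorptive cells were read in the same comparison. All 12 enterocyte markers had a higher mean in FP-high than in FP-low epithelium, by 0.64 at the median (1.43 when FP-high replicate 1 was left out), and limma called 0 of them, with 1 at an unadjusted p under 0.05, where 56.3% of all probe sets had a higher mean and 4.78% passed that p. The arrays overlapped: the median of the 12 markers, measured from the FP-low mean, was -1.52, 1.60, 1.86 and 0.01 in FP-high replicates 1 to 4, against -0.94 to 1.02 in FP-low epithelium. All 5 measured Paneth cell markers had a lower mean in FP-high epithelium (median -1.34), as did 43.7% of all probe sets. Without FP-high replicate 1, 4 of 5 did (median -0.36, 45.4% of all probe sets). Their median was -4.327, 0.419, -0.355 and -0.942 in FP-high replicates 1 to 4, against -0.585 to 0.639 in FP-low epithelium, so the groups overlapped. The 6 measured goblet cell markers had a median difference of -0.81, and of 0.316 without FP-high replicate 1. Of the 9 T lymphocyte markers 8 had a higher mean in FP-high epithelium, beside 56.3% of all probe sets. The log2 of their summed level was 8.02 to 10.35 in FP-high and 7.38 to 9.34 in FP-low epithelium. The median of these markers, measured from the FP-low mean, was -0.039, 0.04, 0.82 and 0.194 in FP-high replicates 1 to 4. It ran from -0.304 to 0.237 in FP-low epithelium, so only FP-high replicate 3 lay above that range. The part of these cell types in the mitotic result was not tested.

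The promoters of the mitotic genes were read for the homology region named above and for the CCAAT box. RefSeq promoters of GRCm38.p6, from 250 bases before to 50 after the gene start, were found for 46 of the 54 genes. The letters of the cell cycle genes homology region, TTTGAA or TTCAAA for the other strand, stood within 100 bases before and 50 after the start in 33 of 46 promoters (71.7%), against 8.08% of 27025 promoters of all genes. Of these 33 matches, 23 were on the strand of the gene and 10 on the other, and 13 began before the start and 20 after it. A CCAAT box, CCAAT or ATTGG, stood in the same window in 28 of 46 (60.9%), against 24.0% of all promoters. Over the whole window 28 of 46 (60.9%) held both, against 7.12% of all promoters. The median FP-high minus FP-low difference was -1.05 in the 33 genes with the homology element near the start and -0.90 in the 13 without it, and -0.78 and -0.47 when FP-high replicate 1 was left out. For the CCAAT box it was -1.04 in the 28 genes with it and -1.01 in the 18 without, and -0.58 and -0.76 when FP-high replicate 1 was left out, so that the order turned. These are matches of letters, not measured binding, and their part in the FP-high difference was not tested.

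Short stretches around the match nearest the start are shown for the genes described one by one, 5′ to 3′ on the strand of the gene, with the homology element in capitals and its first base counted from the gene start.
Knl1, chr2:119047138-119047163, plus strand, element at 32: agggcggttagaTTTGAAtacttcag
Bub1b, chr2:118598239-118598260, plus strand, element at 41: agagacgttaaaTTTGAAactt
Bub3, chr7:131560315-131560340, plus strand, element at -43: gagccgttggcgTTCAAAatcagcca
Plk1, chr7:122159453-122159478, plus strand, element at 31: cccagcgccgcgTTTGAAttcgggga
Aurka, chr2:172370525-172370550, minus strand, element at 33: aaaaggagaaccTTTGAAttgtaacg
Hmmr, chr11:40733416-40733441, minus strand, element at 9: agttgaggtaaaTTTGAAttcaggcg
Aspm, chr1:139454767-139454792, plus strand, element at 7: ggaggcgcgataTTTGAAccgagcaa
Prc1, chr7:80294434-80294459, plus strand, element at -5: cctctggctcggTTTGAAttccgcgg
Kif23, chr9:61946784-61946809, minus strand, element at 3: ctgattggcctgTTTGAAatgcgccg
Ncapg2, chr12:116405406-116405431, plus strand, element at -18: tacgcgggtgtgTTTGAAtctggtcc
Top2a, chr11:99024199-99024224, minus strand, element at -23: gctagataaaggTTCAAAtgaaacta
In these 11 the element begins between 43 bases before and 41 bases after the start. Bub3 and Top2a carry it on the strand opposite to the gene. Nuf2 has no match in its window, and the promoters of Ccna2 and Foxm1 were not analysed here.

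Longer stretches, the 150 bases before the start, are shown for 3 genes that separated FP-high from FP-low samples in every array, with the homology element (TTTGAA or TTCAAA) and the CCAAT box (CCAAT or ATTGG) in capitals.
Hmmr, chr11:40733438-40733587, minus strand: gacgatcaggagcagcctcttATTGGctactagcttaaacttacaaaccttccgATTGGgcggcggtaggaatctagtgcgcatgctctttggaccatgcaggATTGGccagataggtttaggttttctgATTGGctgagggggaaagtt
Ncapg2, chr12:116405286-116405435, plus strand: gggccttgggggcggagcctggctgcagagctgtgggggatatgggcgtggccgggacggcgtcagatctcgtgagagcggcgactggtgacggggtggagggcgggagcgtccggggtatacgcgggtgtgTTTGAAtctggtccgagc
Top2a, chr11:99024190-99024339, minus strand: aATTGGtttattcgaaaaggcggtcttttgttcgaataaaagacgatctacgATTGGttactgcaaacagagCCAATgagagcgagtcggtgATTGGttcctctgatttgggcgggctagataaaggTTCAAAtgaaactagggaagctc
Hmmr and Top2a each have 4 CCAAT boxes in this stretch and Ncapg2 has 0. Top2a and Ncapg2 have the homology element before the start, and Hmmr has it after the start, in the short stretch printed for it.

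Kinetochore and centromere genes were lower in FP-high epithelium in 10 of 10 cases (median difference -1.05, and -0.93 without FP-high replicate 1), with 6 at an unadjusted p under 0.05. Of all probe sets, 43.7% had a lower mean and 7.95% passed that p on the lower side. These shares stand beside the counts of each role group below. Knl1, the scaffold that binds the NDC80 and MIS12 complexes and recruits checkpoint proteins, had log2 levels of 8.01, 7.03 and 7.05 in adenomas, 3.75, 5.27, 4.62 and 5.65 in FP-high epithelium and a lowest, median and highest level of 6.48, 7.26 and 7.57 in FP-low epithelium. All 4 FP-high arrays lay below all other arrays, and adenomas overlapped FP-low epithelium. Its mean was 5.13-fold lower in FP-high than in FP-low samples (adjusted p = 0.0809, limma with Benjamini-Hochberg adjustment), and its log2 difference was -2.0 without FP-high replicate 1. Nuf2, a microtubule-binding subunit of the NDC80 complex, had levels of 6.44, 6.06 and 6.09 in adenomas, 5.27, 5.78, 5.26 and 4.99 in FP-high and 6.17, 6.52 and 6.69 (lowest, median, highest) in FP-low epithelium. The FP-high arrays were again the lowest 4 of 13, at -1.14 ± 0.18 (SE) from FP-low, and at -1.12 without replicate 1. Cenpa, the histone variant of the centromere, had the smallest difference of this group with all arrays (-0.37), and Spc25, a subunit of the NDC80 complex, without FP-high replicate 1 (-0.10).

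The 5 spindle checkpoint genes had lower means in FP-high samples in 5 of 5 cases, and FP-high replicate 1 was far below the other FP-high arrays. Their median was -0.90 with it and -0.48 without it, and in that array alone their median lay at -2.87 from the FP-low mean, against -0.35, -0.25 and -0.41 in FP-high replicates 2 to 4. Bub3, a checkpoint protein that docks on the kinetochore scaffold, had levels of 5.55, 5.58 and 6.09 in adenomas, 2.92, 5.07, 5.64 and 5.48 in FP-high and 5.57, 5.90 and 6.21 in FP-low epithelium. Its FP-high arrays overlapped both other groups, and the difference from FP-low was -1.11 ± 0.43 with FP-high replicate 1 and -0.49 without it. Bub1b, which encodes the checkpoint component BubR1, had levels of 5.81, 5.94 and 6.96 in adenomas, 5.42, 6.86, 6.96 and 5.84 in FP-high and 6.24, 7.21 and 7.69 in FP-low epithelium. Both adenomas and FP-high samples reached into the FP-low range, with differences of -0.93 ± 0.40 and -0.90 ± 0.37 from FP-low. The kinase gene Ttk had the smallest FP-high difference of the 5 with all arrays (-0.68) and the kinase gene Bub1 without FP-high replicate 1 (-0.25).

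Mitotic kinases and the chromosomal passenger complex, a role group that also holds Sgo1, showed the smallest median difference of the 7 role groups with all arrays (-0.55). In it 8 of 8 means were lower and 5 genes had an unadjusted p under 0.05 (7.95% of all probe sets). Without FP-high replicate 1 the median was -0.49, next to -0.48 for the checkpoint genes. Plk1, the polo-like kinase of mitotic entry and spindle assembly, had levels of 5.58, 5.79 and 5.66 in adenomas, 4.68, 5.17, 5.17 and 4.91 in FP-high and 5.42, 6.10 and 6.67 in FP-low epithelium. The FP-high arrays lay below all others, and the adenomas lay in the lower part of the FP-low range. The FP-high mean was 2.07-fold below FP-low (-1.05 ± 0.22). Aurka, the kinase of centrosome maturation, had levels of 6.15, 5.98 and 6.39 in adenomas, 5.66, 5.86, 6.07 and 5.86 in FP-high and 6.18, 6.23 and 6.62 in FP-low epithelium. Its difference was modest at -0.47 ± 0.14, yet no FP-high array reached the lowest FP-low array. With all arrays Cdca8, which encodes borealin of the passenger complex, had the largest difference of the group (-1.06) and the centrosomal kinase Nek2 the smallest (-0.39). Without FP-high replicate 1 Cdca8 was at -0.53, and Plk1 had the largest (-0.95) and Aurkb the smallest (-0.33).

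Spindle assembly genes had lower FP-high means in 7 of 7 cases (median -1.08, and -0.85 without FP-high replicate 1). In 4 of them, Hmmr, Tpx2, Kif15 and Aspm, the groups did not overlap, beside 1.51% of all probe sets. Hmmr, a spindle microtubule protein, had levels of 6.45, 5.78 and 6.28 in adenomas, 5.05, 5.26, 5.61 and 4.66 in FP-high and 6.12, 6.30 and 6.48 in FP-low epithelium. Adenomas lay above all FP-high arrays and overlapped FP-low, and the FP-high minus FP-low difference was -1.14 ± 0.19. Aspm, a protein of the spindle poles, had levels of 5.13, 4.81 and 5.35 in adenomas, 4.33, 3.90, 4.54 and 4.57 in FP-high and 5.14, 5.30 and 6.13 in FP-low epithelium. The order was the same, and leaving out FP-high replicate 1 left its difference at -1.08. Tpx2, a spindle assembly factor that activates Aurora A, had the largest difference of the group with all arrays (-1.24), and Hmmr without FP-high replicate 1 (-1.11). The microtubule-depolymerising kinesin Kif2c had the smallest in both cases (-0.13 and -0.07).

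Genes of the spindle midzone and cytokinesis had lower FP-high means in 8 of 8 cases (median -1.0, and -0.77 without FP-high replicate 1). An unadjusted p under 0.05 was reached by 7 of them, beside 7.95% of all probe sets. Prc1, which bundles antiparallel microtubules in the midzone, had levels of 7.14, 6.76 and 7.52 in adenomas, 5.12, 6.02, 6.65 and 4.34 in FP-high and 7.10, 7.31 and 7.72 in FP-low epithelium. Its lowest array was FP-high replicate 4, and without replicate 1 the difference was -1.67. Kif23, a kinesin of the centralspindlin complex, had levels of 6.83, 6.76 and 7.21 in adenomas, 4.85, 6.17, 6.29 and 5.0 in FP-high and 6.5, 6.98 and 7.11 in FP-low epithelium. FP-high replicates 1 and 4 were far below the other 2 FP-high arrays, which were themselves below the lowest FP-low array, and the mean difference was -1.31 ± 0.28. Racgap1, the partner of Kif23 in centralspindlin, differed by -0.10 and was the smallest of the group.

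Condensin and chromosome structure genes had the largest median difference of the 7 role groups with all arrays, -1.39. Of these genes, 8 of 8 had lower means and 7 had an unadjusted p under 0.05 (7.95% of all probe sets). Without FP-high replicate 1 the median was -0.86, and the kinetochore genes then had the largest, -0.93. Ncapg2, a subunit of condensin II, had levels of 5.14, 4.51 and 5.49 in adenomas, 4.28, 3.91, 4.63 and 3.98 in FP-high and 5.51, 5.54 and 6.26 in FP-low epithelium. It was the gene of the named 14 with both adenoma and FP-high arrays fully below FP-low, and its FP-high difference was -1.55 with FP-high replicate 1 and -1.58 without it. Top2a, the topoisomerase that untangles sister chromatids, had levels of 9.33, 8.93 and 9.23 in adenomas, 6.88, 8.76, 9.01 and 7.67 in FP-high and 9.12, 9.67 and 9.96 in FP-low epithelium. The FP-high arrays all lay below FP-low, replicate 3 narrowly, for a difference of -1.51 ± 0.35 and of -1.11 without replicate 1. Top2a had 2 probe sets, of which these values are the brighter, and the mean of both differed by only -1.1 with all arrays. Mki67, the Ki-67 gene and a common marker of cycling cells, was on the list from the start. It is named here after its values were seen and differed by -1.43 (-1.27 without replicate 1). The smallest difference of the group was that of Ncaph with all arrays (-0.61) and of Ncapd2 without FP-high replicate 1 (-0.40), both condensin I subunits.

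Among cyclins, Cdk1, anaphase regulators and Foxm1, 7 of 8 genes had lower FP-high means (median -0.96, and -0.58 without FP-high replicate 1). In none of them were the groups fully apart, as they were with FP-high lower in 1.51% of all probe sets. Ccna2, the cyclin of S phase and mitotic entry, had levels of 7.75, 8.18 and 8.80 in adenomas, 5.88, 7.47, 8.39 and 7.38 in FP-high and 8.36, 8.65 and 8.98 in FP-low epithelium. FP-high replicate 3 just reached the FP-low range and the other 3 FP-high arrays did not, and the difference was -1.37 ± 0.38, or -0.91 without FP-high replicate 1. Foxm1, the transcription factor that drives many mitotic genes, had levels of 4.73, 4.39 and 4.88 in adenomas, 3.26, 4.93, 3.96 and 4.09 in FP-high and 4.38, 5.42 and 6.21 in FP-low epithelium. The FP-low arrays spread widely and overlapped both other groups, with a difference of -1.26 ± 0.35 for FP-high. Espl1, which encodes separase, the protease that cuts cohesin at anaphase, was the exception, with levels of 4.56, 4.40, 3.88 and 4.34 in FP-high and 3.91, 4.09 and 4.21 in FP-low epithelium. Its difference was 0.22 ± 0.15 (adjusted p = 0.454, limma) and 0.13 without FP-high replicate 1, and the groups overlapped. Espl1 was dim and is not among the 51 genes brighter than the median probe set, of which 0 had a higher FP-high mean.

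**Figure D2:**
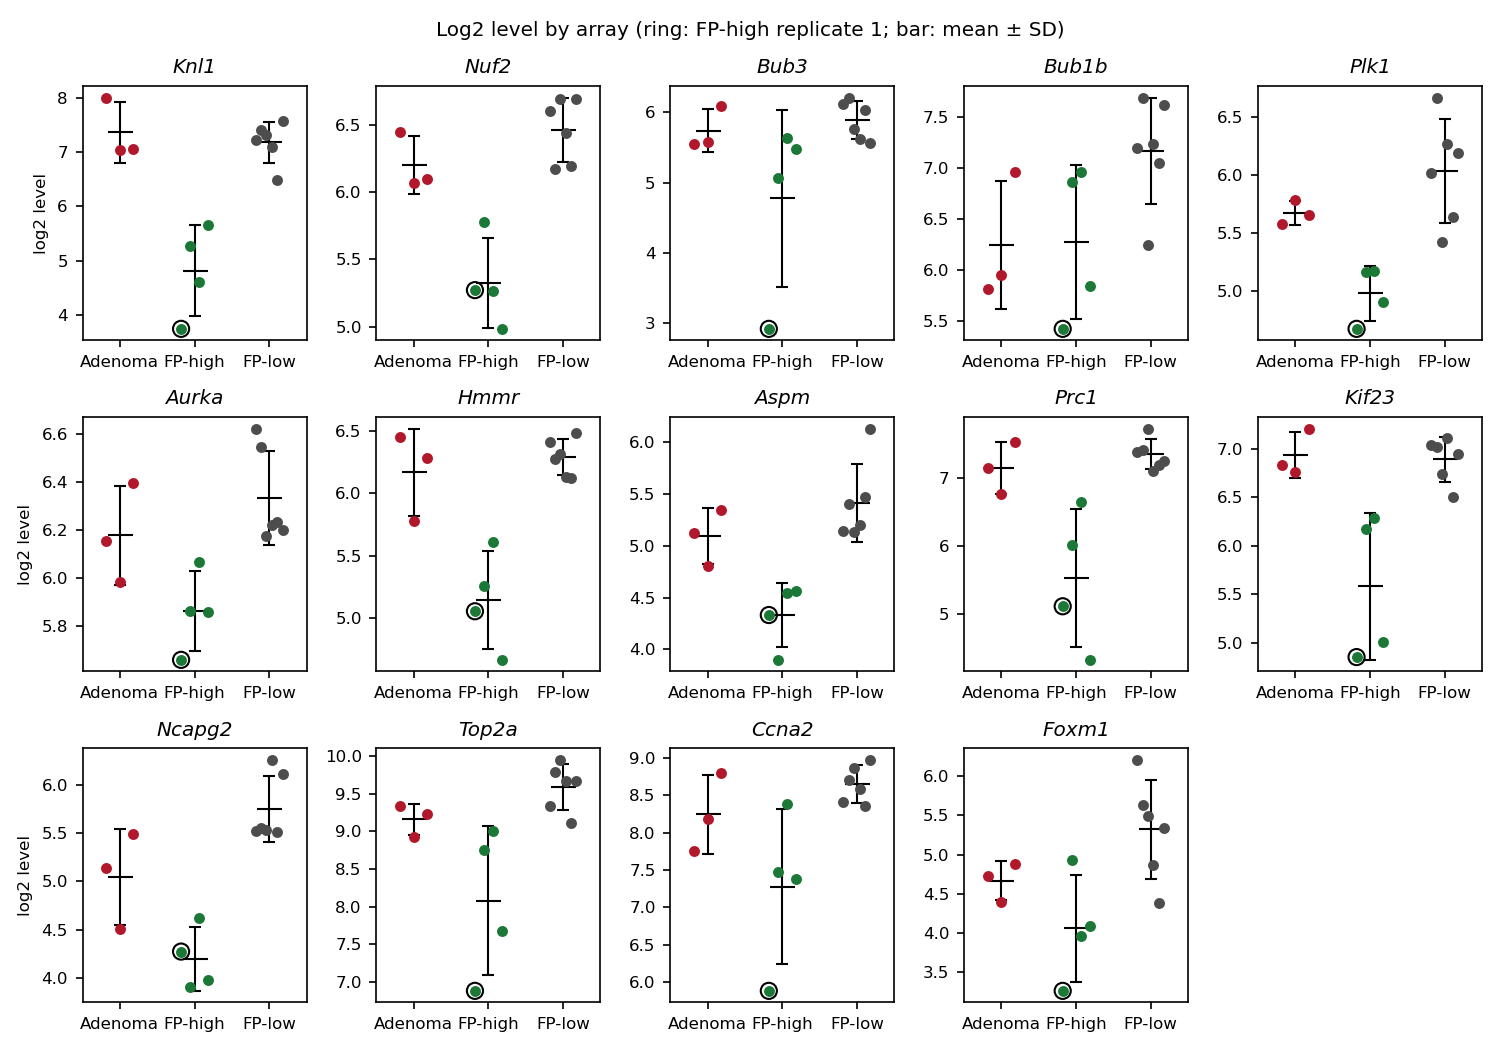
Log2 level of 14 mitotic genes in each array of the adenoma, FP-high and FP-low groups; each point is 1 array, the ring marks FP-high replicate 1, the bars are mean ± SD (n = 3, 4 and 6), and the vertical scale differs between panels. In Knl1, Nuf2, Plk1, Hmmr, Aspm, Prc1 and Kif23 all 4 FP-high points lie below every other point.

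**Figure D3:**
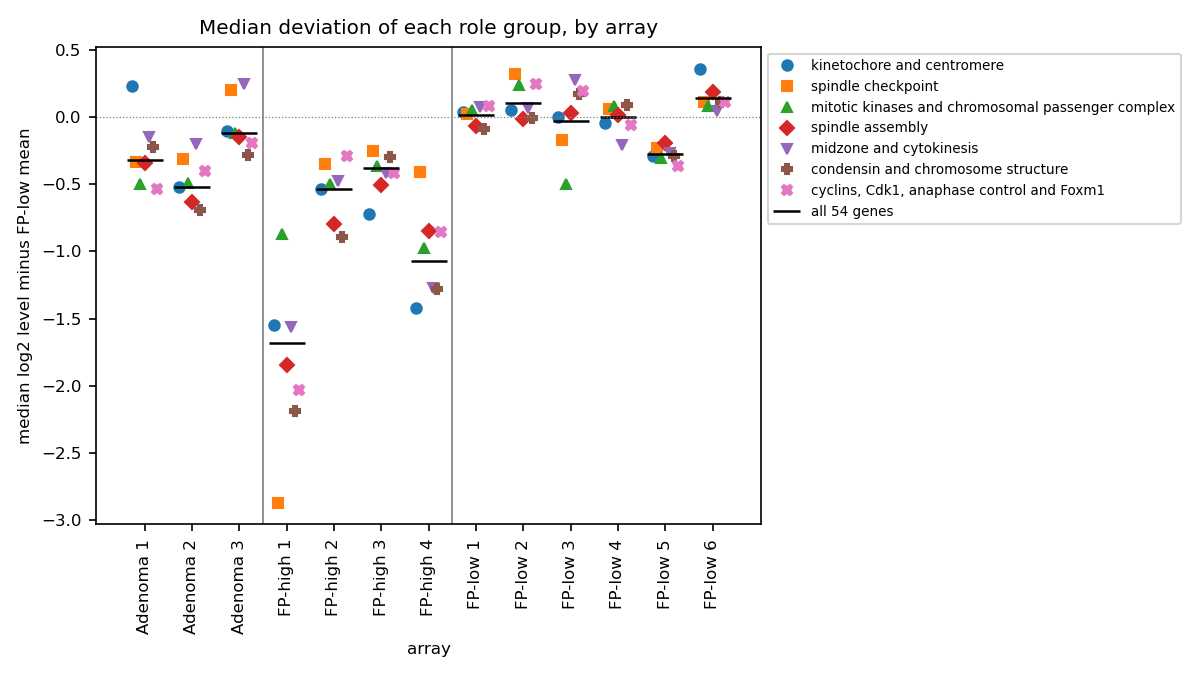
Median over each of 7 role groups of the log2 level minus the FP-low mean, in each of the 13 arrays; the black line is the median of all 54 genes. FP-high replicate 1 spreads widest, with the checkpoint genes at -2.87 and the group of kinases and the passenger complex at -0.87. The role groups in the FP-low arrays run from -0.49 to 0.36, and the black lines of the FP-low arrays lie between -0.27 and 0.15.

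Most mitotic genes had a higher mean in adenomas than in FP-high normal epithelium, and Knl1 was the only gene of the 54 that passed the test. The group mean was higher in adenomas in 48 of 54 genes, beside 40.4% of all probe sets tested. The median log2 difference, adenoma minus FP-high, was 0.68 over the genes and -0.11 over all probe sets. Most of the genes (51 of 54) are among the 11705 probe sets brighter than the median. Over these bright probe sets the median difference was 0.19, of the same sign as in the genes, and 1.34% were called higher. Limma called 1 of the 54 genes, beside 0.748% of all probe sets on the higher side: Knl1 rose by 2.54 ± 0.41 (SE), or 5.82-fold (adjusted p = 0.0134). At an unadjusted p under 0.05, 19 genes were higher and 0 lower, beside 8.38% and 7.36% of all probe sets. In 10 genes (18.5%), Knl1, Nuf2, Cenpe, Plk1, Hmmr, Tpx2, Aspm, Prc1, Kif20b and Kif23, all adenomas lay above all FP-high arrays, beside 6.74% of all probe sets. Of these, 6 encode proteins of the spindle or the midzone, 3 of the kinetochore and 1 is a kinase.

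The comparison of adenomas with FP-high epithelium depended on the arrays used. Without FP-high replicate 1 the median was 0.34, 40 genes had a higher mean (37.5% of all probe sets), the same 10 genes did not overlap (8.3% of all probe sets) and Knl1 alone was called, at 2.18 (0.91% of all probe sets). Adenoma and FP-high arrays of the same replicate number correlated in their deviations from the group means at 0.102 to 0.233. Those of different number ran from -0.247 to 0.204, so a pairing by number is not established. With the replicate number as a block Knl1 differed by 2.65 and was no longer called (adjusted p = 0.0876, limma), which left 0 genes called. It was also not called with only these 2 groups in the model, with Xist as a covariate, or without adenoma replicate 1 (2.22), and its adjusted p ran from 0.00301 to 0.244 over all settings. When FP-high replicate 3 was left out 6 genes were called higher in adenomas (1.13% of all probe sets), and 2 when replicate 2 was (0.589%). All 3 adenomas and FP-high replicate 4 were high in Xist and FP-high replicates 1 to 3 were low, so that only 1 FP-high array shares this feature with the adenomas. It had Knl1 at 5.65, below all 3 adenomas.

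The 6 genes with a lower mean in adenomas than in FP-high epithelium (59.6% of all probe sets) were the kinetochore gene Spc24 (-0.36), Bub1b (-0.03), Nek2 (-0.33), the passenger complex kinase Aurkb (-0.12), Kif2c (-0.27) and Espl1 (-0.34). None of the 6 had an unadjusted p under 0.05. Without FP-high replicate 1, 14 genes had a lower mean in adenomas (62.5% of all probe sets), with Spc24 at -0.63, Bub1b at -0.32 and Aurkb at -0.19, and Nusap1 lay fully below FP-high (15.6% of all probe sets). By role, the median adenoma minus FP-high difference was 0.97 for checkpoint genes (0.35 without FP-high replicate 1), 0.93 for condensin and chromosome structure (0.58), 0.85 for midzone and cytokinesis (0.83), 0.76 for the kinetochore (0.65), 0.66 for spindle assembly (0.31), 0.48 for cyclins and anaphase control (0.19) and 0.26 for the group of kinases and the passenger complex (0.12). The midzone and kinetochore genes thus changed least when FP-high replicate 1 was left out, and the checkpoint genes most in absolute terms. Of the 12 enterocyte markers, 11 had a lower mean in adenomas (59.6% of all probe sets; median -0.90, and -1.34 without FP-high replicate 1), and their part in the mitotic difference was not tested.

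Against FP-low normal epithelium, most mitotic genes had a somewhat lower mean in adenomas, and none passed the test. All 3 adenomas and FP-low replicate 6 were high in Xist and the other FP-low arrays were low. Group and this feature thus largely coincide in this comparison. The group mean was lower in adenomas in 44 of 54 genes, beside 61% of all probe sets, and the median log2 difference, adenoma minus FP-low, was -0.31 over the genes and -0.06 over all probe sets. Limma called 0 of the 54 genes, beside 0.534% of all probe sets on the higher and 0.0171% on the lower side. At an unadjusted p under 0.05, 6 genes were lower (3.2% of all probe sets) and 0 were higher (4.24%). All 3 adenomas lay below all 6 FP-low arrays in 6 genes (11.1%), Spc24, Cenpn, Kif15, Nusap1, Ncapd2 and Ncapg2, beside 5.64% of all probe sets. Spc24, a subunit of the NDC80 complex, had the lowest difference of the 54 (-1.03 ± 0.44), with levels of 6.37, 6.24 and 7.18 in adenomas against 7.36, 7.53 and 8.14 (lowest, median, highest) in FP-low epithelium.

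Nusap1, a microtubule-bundling protein of the spindle, was named after its values were seen because its call changed with the arrays. It had levels of 7.12, 6.78 and 7.22 in adenomas and 7.36, 7.99 and 8.19 in FP-low epithelium, with no overlap. Its difference of -0.86 had an adjusted p of 0.568 with all arrays and of 0.0403 without FP-high replicate 1, which shares in the estimate of the spread (limma), where 0.513% of all probe sets were called lower. It was also called with array weights (adjusted p = 0.00827, limma, with 1.52% of all probe sets called lower) and under no other setting. The 10 genes with a higher mean in adenomas were Knl1, Ndc80, Cenpe, Cenpf, Cenpk, Bub1, Mad2l1, Kif20b, Kif23 and Anln. They make up 18.5% of the 54, beside 39% of all probe sets, 5 of them are kinetochore genes, and the differences ran only to 0.29, in Anln, a scaffold of the contractile ring, where adenomas had 6.21, 5.63 and 6.26. By role, 5 of 10 kinetochore genes, 3 of 5 checkpoint genes and 5 of 8 midzone genes had a lower mean in adenomas. In the role group of kinases and the passenger complex 8 of 8 genes did, as did 7 of 7 spindle assembly genes. The same held for 8 of 8 condensin and chromosome structure genes and 8 of 8 genes in the group of cyclins, Cdk1, anaphase regulators and Foxm1.

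Markers of other cell types also differed between adenomas and FP-low epithelium. All 5 Paneth cell markers had a lower mean in adenomas (median -2.37), as did 61% of all probe sets. The log2 of their summed level was 12.04 to 13.32 in adenomas and 13.62 to 14.47 in FP-low epithelium. The stromal markers had a median difference of -0.06 over 9 genes, with the proteoglycan Dcn higher (2.46, adjusted p = 0.041, limma). The leukocyte gene Ptprc was higher by 1.0 (adjusted p = 0.0191, limma), while 8 of 9 T lymphocyte markers were lower, beside the same 61%. The part of these cell types in the mitotic values was not tested. The 2 comparisons of adenomas share their 3 arrays, and each shares its normal group with the comparison of FP-high and FP-low epithelium.

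**Figure D4:**
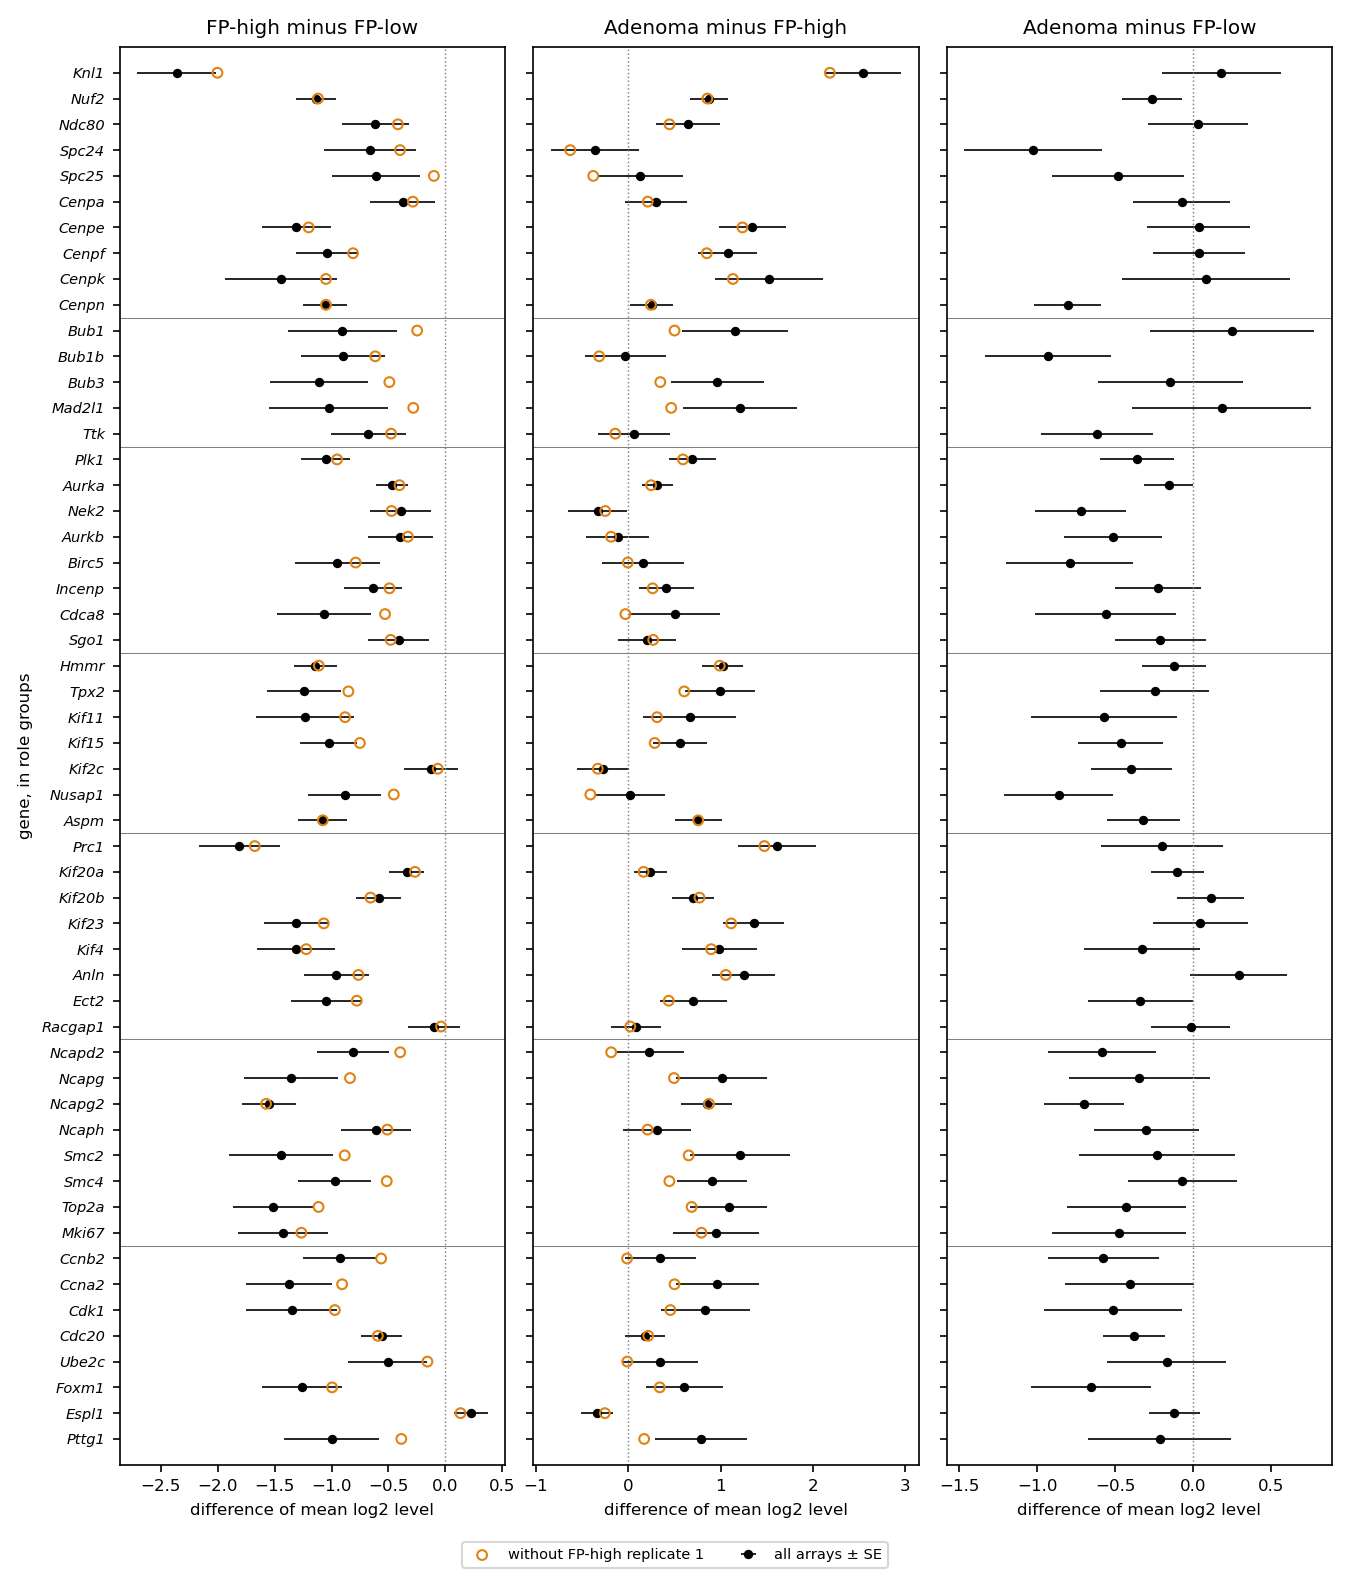
Difference of mean log2 level for each of the 54 genes in 3 comparisons, FP-high minus FP-low, adenoma minus FP-high and adenoma minus FP-low; filled points are limma estimates from all arrays with their SE, rings are the estimates without FP-high replicate 1, which leaves the third comparison's estimates as they are, and the horizontal scale differs between panels. Points lie left of 0 for 53 genes in the first panel, right of 0 for 48 in the second and left of 0 for 44 in the third.

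Other genes of the same processes were read from lists that hold none of the 54. Of 61 measured further mitotic genes, 57 were lower in FP-high than in FP-low epithelium by group mean, beside 43.7% of all probe sets. Their median was -0.60 (-0.52 if FP-high replicate 1 is left out). On the lower side 28 passed an unadjusted p under 0.05, where 7.95% of all probe sets did, and limma called 0. Without FP-high replicate 1, 55 were lower (45.4% of all probe sets) and 21 passed that p (4.84%). The smallest p-values belonged to the centromere gene Cenph (-1.96 ± 0.34), the abscission gene Cep55 (-1.35 ± 0.24) and the kinetochore gene Zwint (-0.82 ± 0.18). Cohesin and its regulators, which hold sister chromatids together until anaphase, had lower FP-high means in 10 of 10 genes (median -1.06, and -0.48 without FP-high replicate 1), with 6 below that p and 0 called. Subunits of the anaphase-promoting complex had lower FP-high means in 11 of 12 genes (median -0.59), with 5 below that p and 0 called. For both lists the shares of all probe sets are the same 43.7% and 7.95%. Without FP-high replicate 1, 10 of the 12 subunits were lower (median -0.485) and 3 were below that p. All 10 cohesin genes were still lower, with 6 below it. Between adenomas and FP-high epithelium limma called 4 of the 61 further mitotic genes, all higher in adenomas, where 0.748% of all probe sets were called higher: Cep55 (1.82, adjusted p = 0.0109), Depdc1a (1.65, 0.0168), the centromere gene Cenpc1 (0.91, 0.0239) and the cohesin protector Sgo2a (1.79, 0.0427). It called 1 of 12 anaphase-promoting complex subunits, Anapc4 (1.70, adjusted p = 0.0225), and 0 of 10 cohesin genes, with 1 of those at an unadjusted p under 0.05. In adenomas against FP-low epithelium 0 genes of the 3 lists were called, with 1 higher and 2 lower at an unadjusted p under 0.05 among the 61 further mitotic genes, near or under the 4.24% and 3.2% of all probe sets.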

How the data were processed

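Levels are the deposited log2 values of 35556 probe sets on 13 arrays, made by the authors in Affymetrix Command Console, per the series' design text, and in Expression Console and Transcriptome Analysis Console, per the submitters' processing notes. The sources used here give no background correction, normalization or version, and the log2 scale rests on the range of the values. Platform annotation, checked against RefSeq, gave the gene symbols. The 23410 probe sets with at least 1 symbol were tested (21789 with exactly 1, 1621 with several) and the 12146 with none were not.

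Each comparison was fitted with limma 3.58.1 in R 4.3.3 (lmFit and eBayes, two-sided) on all arrays and 3 groups, with Benjamini-Hochberg adjustment over the tested probe sets. An adjusted p under 0.05 was a call. No covariate, filter or further normalization was used. The script was tested on simulated data. The genes and lists were chosen with earlier results of these data known, so counts over them are descriptions. Named genes were the 2 with the smallest p, FP-high against FP-low, in each role group, any called gene, the extremes of each role group and genes on the opposite side of 0. Other names are said to be chosen after seeing values. Arrays of the same replicate number correlated in their deviations from the group means between adenoma and FP-high (0.233, 0.102 and 0.220, all above 0.1). Pairs of the same number with FP-low ran from -0.361 to 0.178. Adenoma and FP-high arrays of different number ran from -0.247 to 0.204, and FP-high replicate 3 with FP-low replicate 4 reached 0.347. This check therefore does not establish a pairing, and the labels state none, so the replicate block is given only as an alternative. The alternatives were quantile normalization, bright probe sets, all rows, array weights, the replicate block, only 2 groups, Xist as covariate, the mean of a gene's probe sets and leaving out each array.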

Additional observations from a re-analysis of the deposited data

Results flagged for a closer look

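Among 30 checks of named genes within a group for an array far from its fellows, 1 was met, where chance gives about 1 in 20. Aspm had a log2 level of 6.13 in FP-low replicate 6, against 5.14 to 5.47 in the other 5 FP-low arrays, and the gap to the nearest array was 0.667 of the whole range. This array is also the FP-low array high in Xist.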

How the results depend on the processing

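In the 3 comparisons the median over the genes kept its direction under all 8 alternatives and without each array in turn. FP-high minus FP-low ran from -1.02 to -0.70 over the 8 alternatives, with the lowest value among bright probe sets, where all such probe sets lay at -0.23, and from -1.13 to -0.64 when arrays were left out, with -0.64 without FP-high replicate 1. Counts of called genes moved more. FP-high minus FP-low had 0 called, and 1 lower with array weights (Knl1), where 0.0128% of all probe sets were called lower. When arrays were left out it had 0 to 13. Leaving out FP-high replicate 3 gave 13 (0.555% of all probe sets called lower), replicate 2 gave 2 (0.047%) and replicate 4 gave 1 (0.0256%). Adenoma minus FP-low had 0, and 2 lower with array weights (Cenpn and Nusap1), where 1.52% of all probe sets were called lower. It had 0 to 1 without an array, with the 1 when FP-high replicate 1 was left out (0.513%). Adenoma minus FP-high had 1 (0.748% of all probe sets called higher) and 3 with array weights (1.86%). It had 0 with the replicate block (0.218%), with only the 2 groups (0.196%) and with Xist as covariate (0.132%). Without an array it had 0 to 6. There were 6 when FP-high replicate 3 was left out (1.13%), 2 for replicate 2 (0.589%) and 0 for adenoma replicate 1 (0.303%). Among the listed mitotic genes the replicate block changed no other call. Over all probe sets the block left 51 called higher and 0 lower in adenoma minus FP-high, against 175 and 4 without it. In adenoma minus FP-low it left 37 and 0, against 125 and 4. Calls of single genes outside the list are given here only without the block.

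Some values that were not called changed sign. For adenoma minus FP-low these were Kif23 (-0.02 with quantile normalization, -0.016 with array weights, -0.11 with the replicate block, and -0.091 to 0.13 without an array), Knl1 (-0.51 with Xist as covariate, and -0.14 to 0.35 without an array), Hmmr (0.03 with Xist as covariate, and -0.26 to 0.075 without an array), Prc1 (0.56 with Xist as covariate), Top2a (0.066 as the mean of its probe sets) and Espl1 (-0.23 to 0.00 without an array). For adenoma minus FP-high these were Aurka (-0.015 with quantile normalization) and Bub1b (0.11 with Xist as covariate, and -0.39 to 0.20 without an array). The cause was not tested. Of all values of named genes under the alternatives, 903 kept direction and call, 17 newly passed the threshold, 4 no longer did, and 18 changed sign.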
